A study of Mus musculus with 2 samples.

Results

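Cytl1 and Gkn3 are 2 of the 32285 genes counted in a droplet single-cell RNA sequencing survey of the mouse aorta. They were chosen by name after earlier results on these data had shown both among the genes of the endothelium, and their UMI levels in endothelial, chondrocyte, smooth muscle and fibroblast barcodes were the measured values that chose them. Their levels by cell class are therefore given as a description, with no test. The survey held 2 samples of aortic cells, both from ApoE-/- mice aged 20 weeks, which lack apolipoprotein E and are prone to atherosclerosis. The groups are labelled HFD and MSC_ITGB3, with 1 sample each. Mice of both groups were on HFD per the series text, and the MSC_ITGB3 group received MSC_ITGB3 in addition. The labels do not give the number of animals per sample, their sex or the dose of MSC_ITGB3. Barcodes carry the suffix 1 or 2, called library 1 and library 2 here, and the sources used here do not tie either suffix to a group. Every value is therefore given for both libraries, and HFD and MSC_ITGB3 were not compared.

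Cytl1 encodes cytokine-like 1, a small secreted protein first described in blood progenitor cells and known as a product of cartilage cells, and the chemokine receptor Ccr2 has been described as its receptor. Gkn3 encodes gastrokine 3, a secreted protein of the gastrokine family, whose members carry a BRICHOS domain and are best known from the lining of the stomach. The endothelium is the inner cell layer of the vessel wall, and in the aorta most of it has an arterial character, beside the endothelium of the small vessels and lymphatics in the outer wall.

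Cytl1 (ENSMUSG00000062329) lies on chromosome 5 of GRCm38 at 37735519 to 37739820 on the plus strand, and its coding transcript has 4 exons and 974 bases in GENCODE vM21. Gkn3 (ENSMUSG00000030048) lies on chromosome 6 at 87383256 to 87388935 on the minus strand, with 6 exons and 856 bases. The 250 bases before each start site are shown because both genes were found in the same endothelial barcodes. They come from RefSeq's promoters for GRCm38.p6, read 5′ to 3′ on the gene's strand. Capitals mark matches on either strand to 6 short motifs. The SOX core was searched as AACAAT and the GATA motif as AGATAA. The E-box was searched as CAGCTG and the ETS core as AGGAAG. The KLF motif was searched as CCNCNCCC and the TATA box as TATAAA.
Cytl1, chr5:37735269-37735518: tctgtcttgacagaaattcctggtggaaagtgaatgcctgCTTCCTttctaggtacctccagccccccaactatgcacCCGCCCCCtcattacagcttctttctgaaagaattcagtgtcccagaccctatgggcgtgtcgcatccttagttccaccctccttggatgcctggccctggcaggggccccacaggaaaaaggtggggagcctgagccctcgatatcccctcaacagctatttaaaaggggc
Gkn3, chr6:87388936-87389185: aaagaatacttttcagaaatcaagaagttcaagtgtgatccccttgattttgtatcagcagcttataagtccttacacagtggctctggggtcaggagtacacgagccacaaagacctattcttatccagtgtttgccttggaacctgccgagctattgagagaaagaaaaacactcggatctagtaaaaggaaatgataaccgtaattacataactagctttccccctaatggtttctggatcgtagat
The Cytl1 sequence held 1 ETS match and 1 KLF match, with first bases at -210 and -172 from the start site, and the Gkn3 sequence held no match to any of the 6. Among 32851 promoters searched over the same length, 29.5% held the ETS letters and 45.9% the KLF letters, and the shares for the other motifs were 9.42% (SOX), 9.99% (GATA), 13.0% (E-box) and 12.4% (TATA). The Cytl1 window was 54.8% G or C and the Gkn3 window 40.8%, against a median of 52.4%. These are matches of letters, and binding at these windows was not measured.

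Library 1 held 110257209 UMIs and library 2 held 124266676. Levels are UMIs of a gene per 1000000 UMIs (CPM) summed over barcodes of 3000 or more UMIs and at most 20% mitochondrial UMIs, with exact 95% Poisson intervals that cover counting error only. There were 6332 such barcodes in library 1 (median 8746 UMIs) and 6540 in library 2 (median 6031 UMIs). A barcode counted as endothelial with UMIs of at least 3 of the 5 markers Pecam1, Cdh5, Cldn5, Egfl7 and Ptprb, and as a chondrocyte, a cartilage cell, with Col2a1 at 50 or more per 10000 UMIs. Other classes rested on the same kind of marker count. Some barcodes met more than 1 of the 8 class rules, 13.2% in library 1 and 15.4% in library 2, and among endothelial barcodes the shares were 31.2% and 48.0%. Doublets and free RNA were not removed, and results are also given for barcodes that met no other class rule. The libraries shared 17 barcode sequences, none of them endothelial.

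In endothelial barcodes, Cytl1 stood at 2546 CPM in library 1 (interval 2523 to 2570, 1447 barcodes) and 1702 CPM in library 2 (1663 to 1742, 440 barcodes). It ranked 31st of all genes found in the endothelial barcodes of library 1 and 74th in library 2. Gkn3 stood at 170.0 CPM (164.0 to 176.1) and 83.2 CPM (74.8 to 92.3). Both genes were therefore present in the endothelium of both libraries, with Cytl1 at the higher count. Only the 3′ ends of transcripts were counted, so transcript length does not enter this comparison. Without the barcodes that met another class rule, Cytl1 was at 2924 and 2122 CPM and Gkn3 at 196.7 and 100.7 CPM.

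**Figure D1:**
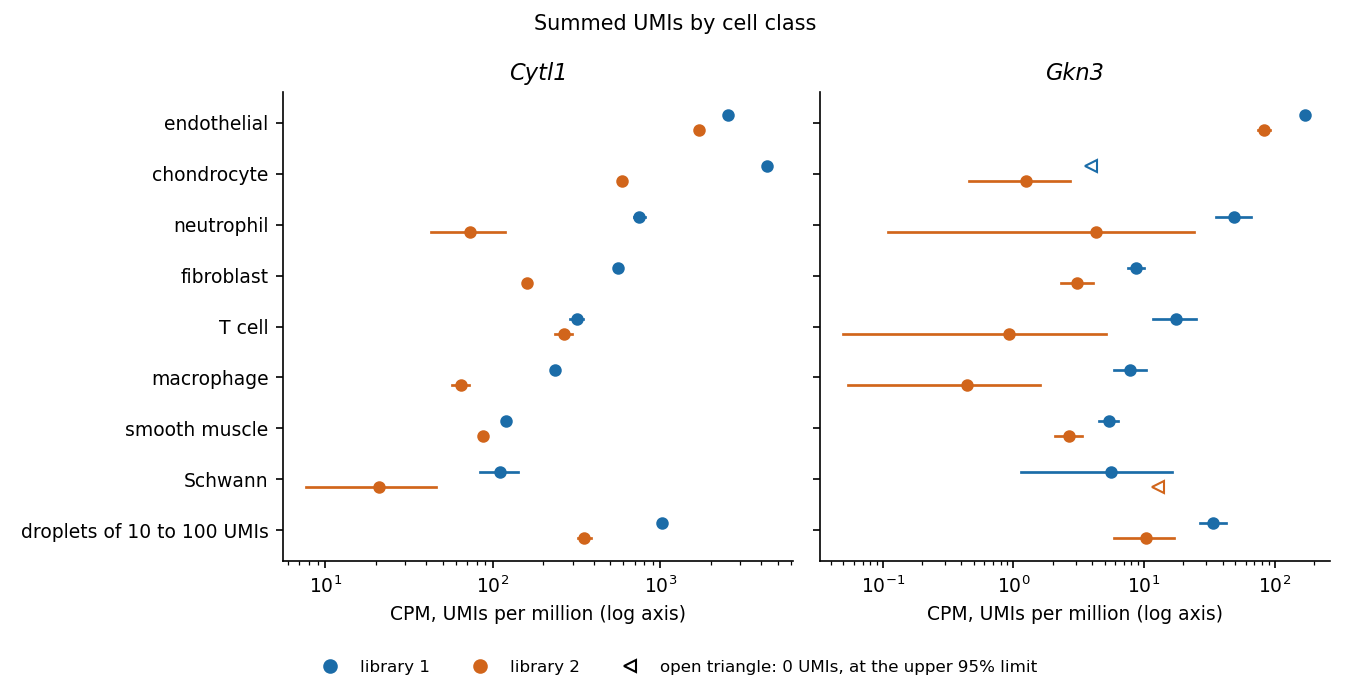
CPM (log axis) of Cytl1 (left) and Gkn3 (right) in each cell class and in droplets of 10 to 100 UMIs, for library 1 (blue) and library 2 (orange). Points are summed levels and lines their 95% counting intervals. Gkn3 was highest in endothelial barcodes of both libraries, and Cytl1 was highest in chondrocyte barcodes of library 1 and in endothelial barcodes of library 2.

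The chondrocyte barcodes separated the genes. Cytl1 stood at 4343 CPM (4211 to 4479) in the 57 chondrocyte barcodes of library 1 and at 588.8 CPM (567.2 to 611.0) in the 470 of library 2. Gkn3 had no UMI in the former, which allows up to 3.19 CPM at 3 counts, and 6 UMIs, 1.25 CPM, in the latter. Cytl1 was thus 1.71 times higher in chondrocyte than in endothelial barcodes of library 1 (counting interval 1.65 to 1.76), and 2.89 times higher in endothelial than in chondrocyte barcodes of library 2 (2.77 to 3.02). Among chondrocyte barcodes that met no other rule, Cytl1 was at 5181 CPM in 28 barcodes and 568.1 CPM in 292, and Gkn3 had no UMI in either library. The order of the classes for Cytl1 was thus not the same in the libraries. This was so with a minimum of 1000 or 5000 UMIs, with a mitochondrial limit of 10%, and with a mean over barcodes in place of summed UMIs.

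Next in order for Cytl1 in library 1 came neutrophil barcodes at 748.7 CPM, fibroblasts at 561.2, T cells at 316.1, macrophages at 233.4, smooth muscle at 119.0 and Schwann cells at 109.7. The last 2 neighbours in that order did not differ beyond counting error. In library 2 the order after chondrocytes was T cells at 264.4 CPM, fibroblasts at 158.6, smooth muscle at 86.8, neutrophils at 73.4, macrophages at 64.1 and Schwann cells at 21.0. Neighbours among smooth muscle, neutrophils and macrophages did not differ beyond counting error there. Of the 286 T cell UMIs of library 2, 208 lay in 4 barcodes that also met the endothelial rule. Where no other rule was met, 76 were left in 7 of 105 T cell barcodes, at 125.7 CPM. The highest level in 1 barcode was 66.6 per 10000 UMIs. Among T cells and neutrophils of library 1 that met no other rule, 30 and 62 Cytl1 UMIs were left of 524 and 672, at 30.7 and 220.0 CPM. Among macrophages, 791 of 1538 were left, at 163.4 CPM. They lay in 49 of 303 barcodes, with 0.33% of the barcodes at 10 or more per 10000 UMIs and a highest level of 95.7. In library 2, 50 of 288 macrophage UMIs were left, at 15.9 CPM. For Gkn3, library 1 ran from neutrophils at 49.0 CPM and T cells at 17.5 down to fibroblasts at 8.77, macrophages at 7.89, Schwann cells at 5.58 and smooth muscle at 5.38, and neighbours among these last 4 did not differ beyond counting error. In library 2 every class outside the endothelium was at 4.32 CPM or less, and none of those with a UMI differed from its neighbour in the order. Among neutrophils and T cells of library 1 that met no other rule, 3 and 5 Gkn3 UMIs were left of 44 and 29, at 10.65 and 5.125 CPM. Among fibroblasts and smooth muscle, 27 and 19 were left of 199 and 135, at 1.59 and 0.913 CPM.

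Droplets of 10 to 100 UMIs, which hold mostly free RNA, gave 1016 CPM (974.6 to 1058) of Cytl1 in library 1 and 351.7 CPM (322.8 to 382.6) in library 2, and 34.0 and 10.4 CPM of Gkn3. These levels were above those of smooth muscle barcodes for both genes in both libraries, and the part of free RNA in the low levels outside the endothelium was not tested. To set each gene against the endothelial RNA present, its UMIs were divided by the summed UMIs of the 5 endothelial markers. For Gkn3 the ratio in library 1 was 0.032 in endothelial barcodes (0.031 to 0.033), 0.029 in smooth muscle (0.024 to 0.034), 0.025 in fibroblasts (0.021 to 0.028), 0.026 in macrophages (0.019 to 0.034) and 0.029 in neutrophils (0.021 to 0.038). In library 2 it was 0.019 in endothelial barcodes (0.017 to 0.021) and 0.020 in both smooth muscle and fibroblasts. The Gkn3 ratio thus stayed within a narrow range across these classes of each library, but the classes share barcodes with the endothelial rule. In library 1, barcodes that also met that rule held 114 of the 135 Gkn3 UMIs of smooth muscle and 164 of the 199 of fibroblasts. Where no other rule was met, the ratio was 0.033 and 0.017 in endothelial barcodes. It was 0.019 (0.011 to 0.030) and 0.0068 (0.0033 to 0.013) in smooth muscle, and 0.022 (0.014 to 0.032) and 0.015 (0.0071 to 0.0275) in fibroblasts. Over all barcodes of each class, the intervals below that of the endothelium in library 1 were those of fibroblasts and T cells (0.018). In library 2 they were those of macrophages and T cells, which held 2 and 1 Gkn3 UMIs. Droplets of 10 to 100 UMIs in library 1 lay above the endothelial interval, at 0.044 (0.034 to 0.055).

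The same ratio for Cytl1 differed between classes. It was 0.479 in endothelial barcodes of library 1 (0.474 to 0.484) and 57.5 in chondrocytes (45.5 to 73.8), and 0.380 (0.370 to 0.391) and 10.1 (8.95 to 11.5) in library 2. Fibroblast barcodes were at 1.58 (1.54 to 1.62) and 1.01 (0.957 to 1.07), and barcodes that met no class rule at 11.5 and 3.55. Smooth muscle barcodes lay nearer to the endothelium, at 0.642 and 0.640. Droplets of 10 to 100 UMIs gave 1.31 (1.23 to 1.39) and 1.05 (0.931 to 1.19). Over all fibroblast barcodes, the ratio of library 2 was thus not above that of the droplets. Fibroblasts held less Cytl1 than the droplets in both libraries, at 561.2 and 158.6 CPM. Where no other rule was met, the fibroblast ratio was 6.65 (6.26 to 7.06) and 1.58 (1.43 to 1.74). It was then above that of the droplets in both libraries, at 482.8 and 97.3 CPM. For smooth muscle that met no other rule, the ratio was 1.20 and 0.439, at 57.3 and 29.4 CPM. By rule these barcodes held fewer than 3 of the 5 endothelial markers, which raises the ratio. Chondrocyte and unclassified barcodes lay above both the endothelial and the droplet ratio in both libraries. In CPM, chondrocytes were above the droplets too, at 4343 and 588.8. Unclassified barcodes were under them, at 929.1 and 185.0 CPM, and by rule held fewer than 3 of the 5 endothelial markers, which raises their ratio.

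**Figure D2:**
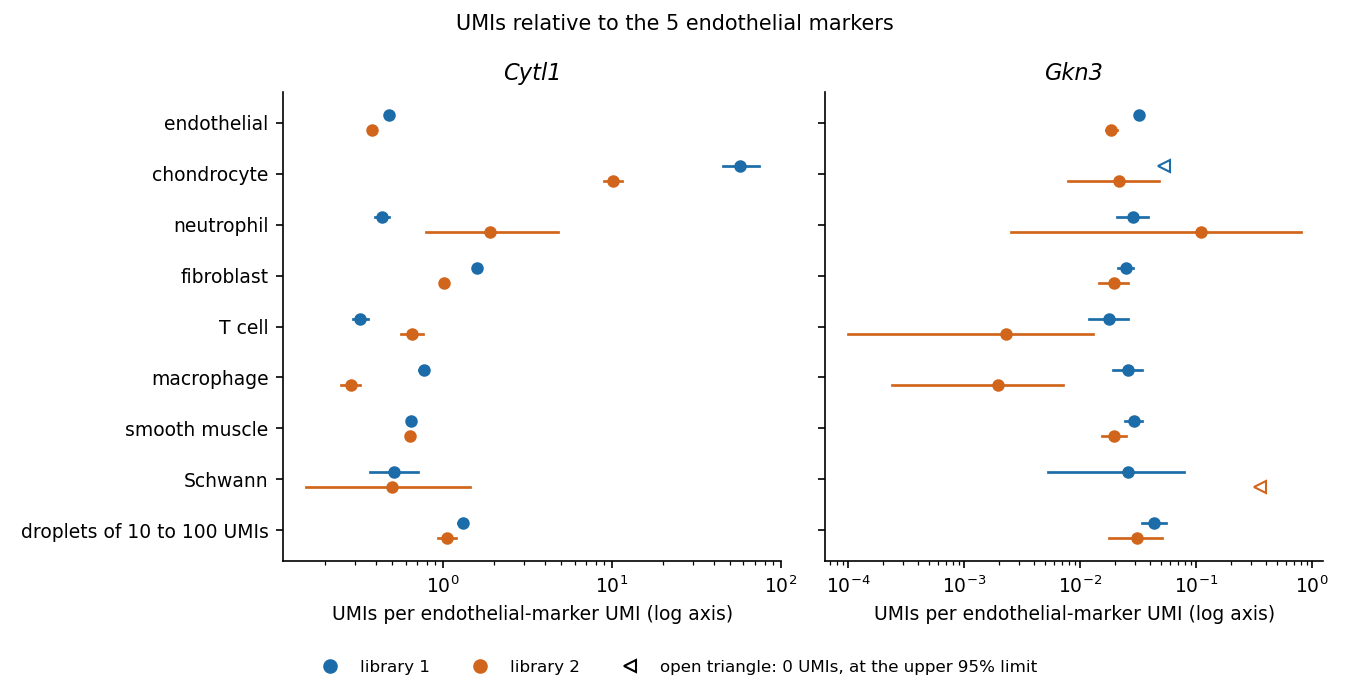
UMIs of Cytl1 (left) and Gkn3 (right) per UMI of the 5 endothelial markers (log axis), by cell class and library, with 95% counting intervals. The Gkn3 points of library 1 lie between 0.018 and 0.044 in all classes with a UMI and in low-count droplets, while the Cytl1 ratio in chondrocyte barcodes was 57.5 and 10.1. Barcodes that met more than 1 class rule count in each of their classes.

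The share of barcodes with a UMI depends on depth, so each barcode was thinned to 3000 UMIs. Cytl1 was then found in 81.0% (78.9 to 83.0, exact Clopper-Pearson interval) of endothelial barcodes of library 1 and 77.0% (72.8 to 80.9) of library 2. Gkn3 was found in 26.7% (24.5 to 29.1) and 16.4% (13.0 to 20.2). Unthinned, the shares were 86.7% and 84.5% for Cytl1 and 42.5% and 27.0% for Gkn3, at median depths of 7734 and 5468 UMIs. In T cells, which should lack both, the thinned shares were 16.2% and 5.11% for Cytl1 and 4.04% and 0 of 137 barcodes, which allows up to 2.19%, for Gkn3, at median depths of 5462 and 5397. Smooth muscle gave 13.9% and 13.4% for Cytl1, within the T cell interval in library 1 and above the T cell upper limit of 10.2% in library 2. The T cell class included 24 and 4 barcodes that also met the endothelial rule. Unthinned, T cells that met no other rule had Cytl1 in 10.3% (5.98 to 16.1) and 6.67% (2.72 to 13.25) of barcodes. Smooth muscle that met no other rule gave 18.6% and 11.8%, at median depths of 11988 and 8498 UMIs against 5182 and 5021. Chondrocytes gave 89.5% and 40.6% for Cytl1, above the T cell background in both libraries, and 0 of 57 barcodes, which allows up to 5.26%, and 0.638% for Gkn3.

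Of all Gkn3 UMIs in barcodes of 3000 or more UMIs, 97.2% (96.6 to 97.8) in library 1 and 91.7% (88.5 to 94.3) in library 2 lay in endothelial barcodes, which were 22.9% and 6.73% of the barcodes. Of the Cytl1 UMIs, 64.5% (64.2 to 64.9) and 50.6% (49.7 to 51.4) lay there. Chondrocyte barcodes outside the endothelial rule held 5.66% and 19.0% of the Cytl1 UMIs, and barcodes under neither rule held 29.8% and 30.5%. Much of that last share was concentrated: 296 barcodes of library 1 and 113 of library 2 with Cytl1 at 10 or more per 10000 UMIs held 26.3% and 17.7% of all Cytl1 UMIs.

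**Figure D3:**
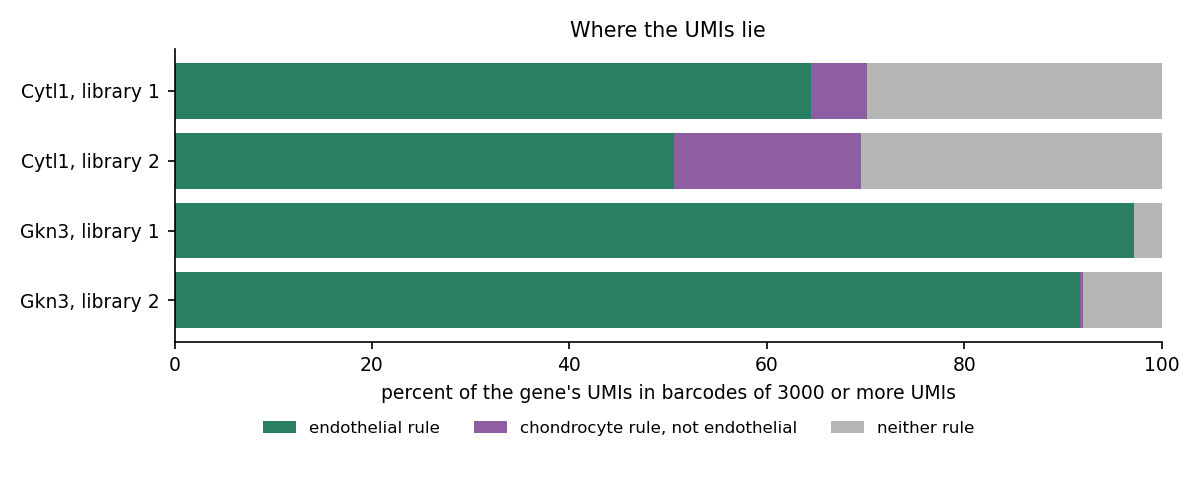
Percent of the UMIs of each gene, in barcodes of 3000 or more UMIs, that lay in endothelial barcodes (green), in chondrocyte barcodes outside the endothelial rule (purple) and in barcodes under neither rule (grey), by library. Gkn3 was at 97.2% and 91.7% endothelial and Cytl1 at 64.5% and 50.6%.

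Chondrocyte barcodes were split by the number of endothelial markers found. Where none of the 5 was found, Cytl1 was at 5592 CPM (5397 to 5793, 24 barcodes) in library 1 and 585.9 CPM (560.3 to 612.3, 362 barcodes) in library 2, with no Gkn3 UMI in either. With 1, 2 and 3 or more found, it was at 3053, 2008 and 1557 CPM in library 1 (16, 13 and 4 barcodes). In library 2 these steps gave 615.6, 393.5 and 629.9 CPM (79, 16 and 13 barcodes). The unthinned share with a Cytl1 UMI went from 48.9% with none to 84.6% with 3 or more in library 2. In library 1 it went from 87.5% to 100%. Among chondrocyte barcodes of library 1, the Cytl1 level per 10000 UMIs ran from 0 to 222.9 with a median of 21.6, and in library 2 from 0 to 140.5 with a median of 1.20. Most chondrocyte barcodes of library 1 thus held Cytl1 at a high level, and most of library 2 held little or none. Cytl1 did not follow the level of Col2a1, the main collagen of cartilage, within the class. At Col2a1 of 50 to 100, 100 to 200 and 200 or more per 10000, Cytl1 was at 3846, 5431 and 3703 CPM in library 1 and at 996.9, 409.9 and 513.9 CPM in library 2. Just outside the threshold, at Col2a1 of 25 to 50, it was at 7569 CPM in 19 barcodes and 367.3 CPM in 194, and just inside, at 50 to 75, at 3075 CPM in 9 and 675.9 CPM in 97 (no endothelial rule met).

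Cytl1 was also counted beside cartilage genes outside the chondrocyte rule. Barcodes with at most 1 endothelial marker, those of the chondrocyte rule included, were split by how many of 15 cartilage genes, Col2a1 left out, were found after thinning. In library 1, Cytl1 went from 117.1 CPM (109.0 to 125.6) with 0 cartilage genes through 200.1, 296.7 and 1377 CPM with 1, 2 and 3 to 3768 CPM (3593 to 3948) with 4 or more. In library 2 it went from 40.3 CPM (35.5 to 45.5) through 72.2, 89.8 and 201.1 to 372.2 CPM (349.2 to 396.3). Without the barcodes that met the chondrocyte rule, Cytl1 with 4 or more was at 3540 CPM (3346 to 3741, 118 barcodes) in library 1 and 276.3 CPM (248.8 to 306.0, 444 barcodes) in library 2. Cytl1 was higher at each further cartilage gene in both libraries, with and without those barcodes. With them, Gkn3 stayed at 2.15 CPM or less at every step.

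**Figure D4:**
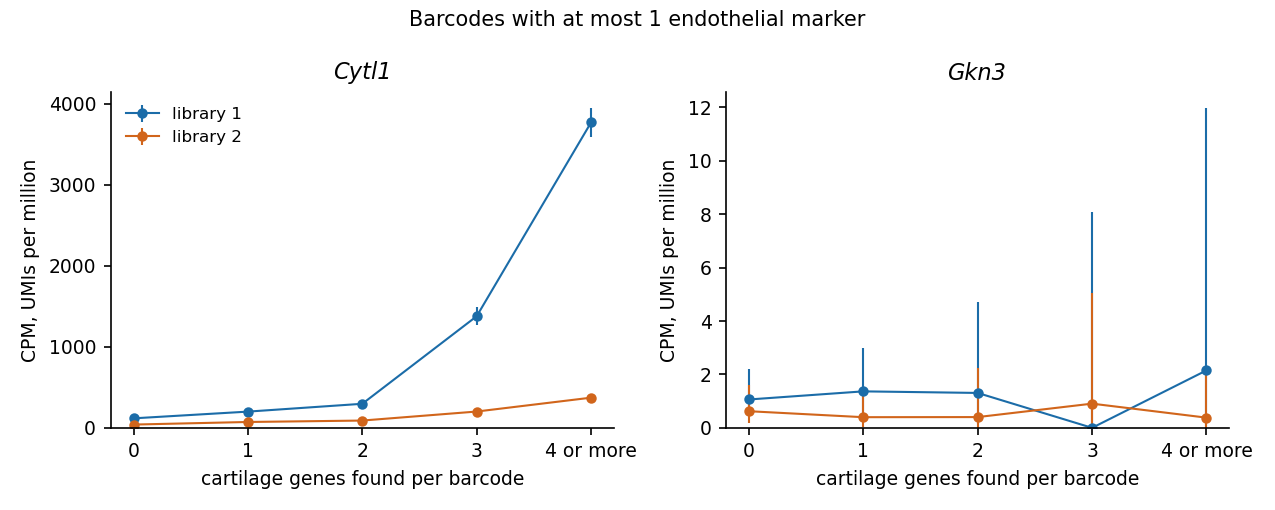
CPM of Cytl1 (left) and Gkn3 (right) in barcodes thinned to 3000 UMIs with at most 1 endothelial marker, by the number of cartilage genes found, with 95% counting intervals. The y axes differ in scale. Cytl1 reached 3768 CPM in library 1 and 372.2 CPM in library 2 with 4 or more cartilage genes, and Gkn3 stayed at 2.15 CPM or less.

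Barcodes outside both rules with at most 1 endothelial marker and Cytl1 at 10 or more per 10000 numbered 231 in library 1 and 99 in library 2. Set against the other barcodes outside both rules with at most 1 endothelial marker, their leading gene by fold was Penk, which encodes the opioid precursor proenkephalin, at 1174 against 30.9 CPM in library 1 and 1027 against 81.8 CPM in library 2. Cartilage genes came with it although the class rule kept Col2a1 under 50 per 10000. Col2a1 was at 719.4 against 41.3 CPM and 1187 against 189.1 CPM, and Col11a2, another cartilage collagen, at 168.7 against 9.15 and 240.6 against 28.4 CPM. Comp, a cartilage and tendon matrix protein, was at 802.0 against 131.6 and 878.7 against 150.5 CPM. Stk32b, a kinase gene that lies 18348 bases from Cytl1 on the other strand, was at 87.8 against 12.5 and 82.4 against 10.4 CPM. The fibroblast rule was met by 48.5% and 38.4% of these barcodes, and no rule by 43.7% and 45.5%. The barcodes were picked for their Cytl1, and these values describe them.

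The neighbours of the genes on the chromosomes were measured in the same barcodes. In endothelial barcodes that met no other rule, Stk32b was at 7.97 and 5.38 CPM and Msx1, a homeobox gene 80665 bases from Cytl1, at 19.4 and 21.5 CPM. Stk32b was at 81.4 and 88.1 CPM in chondrocyte barcodes that met no other rule. Antxr1, which encodes an anthrax toxin receptor and lies 47435 bases from Gkn3, was at 84.2 and 74.9 CPM in those endothelial barcodes, and at higher levels in chondrocytes (135.6 and 118.4 CPM), smooth muscle (127.0 and 113.3 CPM) and fibroblasts (185.2 and 174.2 CPM) that met no other rule. Gkn2, 3759 bases from Gkn3, had no UMI in those endothelial barcodes of either library. Over all endothelial barcodes, Gkn1, 32314 bases from Gkn3, had 46 UMIs in 13 endothelial barcodes of library 1 and 1 UMI in library 2. Of the 46 UMIs, 25 lay in 1 barcode, and none of the 13 barcodes had a Gkn3 UMI.

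Of the other genes with a BRICHOS domain, Bricd5 had no UMI in any class and Sftpc, a lung surfactant protein, had none in endothelial barcodes, in each case among barcodes that met no other rule. Cnmd, chondromodulin of cartilage, was at 222.4 and 112.2 CPM in chondrocytes and at 0.435 and 1.15 CPM in endothelial barcodes. Itm2b, a widely expressed membrane protein, was at 1856 and 1602 CPM in endothelial barcodes and at 680.6 CPM or more in every class. Ccr2 was at 1.01 and 1.15 CPM in endothelial barcodes, at 37.2 and 33.1 CPM in macrophages and at 59.5 and 134.0 CPM in T cells. Among the BRICHOS genes, the endothelium thus held Gkn3 and the Itm2 genes at more than 10 CPM in both libraries.

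Across endothelial barcodes the 2 genes were found together. After thinning, 371 barcodes of library 1 held both, 801 Cytl1 alone, 16 Gkn3 alone and 259 neither, and in library 2 the counts were 67, 272, 5 and 96. Gkn3 was found in 31.7% (29.0 to 34.4) of barcodes with Cytl1 and 5.82% (3.36 to 9.28) of those without in library 1, and in 19.8% (15.7 to 24.4) and 4.95% (1.63 to 11.2) in library 2. Of the barcodes with Gkn3, 95.9% and 93.1% also held Cytl1. Their levels per barcode correlated with a Pearson r of 0.37 in each library (1447 and 440 barcodes), as a description over barcodes that share a library and differ in endothelial purity.

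By that measure, the log-transformed level per 10000 UMIs, the gene most like Gkn3 among 10292 was Cytl1. It was followed by Adh7, an alcohol dehydrogenase, Mgst3, Lmo2, Pecam1, Clu, Vwf, Mmrn2, Ptprj and Clec14a, with r between 0.28 and 0.37. The genes most like Cytl1 were Ptprj, a receptor phosphatase, Vwf, the von Willebrand factor of clotting, Pecam1, Ltbp4, Clu, Ramp2, Gja5, Heg1, Adh7 and Epas1, with r between 0.43 and 0.59. Across the 8 classes in both libraries, 16 points that share their libraries, Gkn3 was most like Cyp4b1 (r = 0.99), Megf6, Tmem252, Dll4, Adh7, Tmem255b, Adcy4, Bmx, Acer2 and Arl15. Cytl1 was most like Elk3 (r = 0.88), Ifitm10, Tmed9, Hhat, Pkn3, Usp24, Plekha6, Fam43a, Gprc5a and Mall. The members themselves had an r of 0.56 over these points.

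Endothelial barcodes with and without Cytl1 were set against each other gene by gene, all thinned to 3000 UMIs. With 1 sample per group and no replicates there is no test, and a gene was called when it differed at least 2-fold in the same direction in both libraries, with 5 CPM added and at least 20 CPM in either set. Called higher with Cytl1 were 80 of 6916 genes (1.16%), and called lower were 62 (0.896%). Of the barcodes with Cytl1, 28.8% and 46.3% met another class rule, against 41.5% and 53.5% of those without, and the part of this in the differences was not tested. Klk10, a kallikrein-related protease, led the higher genes, at 54.6 CPM with Cytl1 and no UMI without in library 1, and 61.0 CPM and no UMI in library 2. Adh7 followed, at 132.8 against 18.2 CPM and 85.6 against 9.90 CPM. Gkn3 was the next, at 185.7 against 26.7 CPM and 94.4 against 16.5 CPM.

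Of 15 tested arterial genes, 4 were called higher with Cytl1 and none lower, with a median log2 difference of 0.71 and 0.72, against -0.06 and -0.02 over all genes. They were Gja5 and Gja4, connexins of arterial gap junctions, Sox17, a transcription factor of arterial endothelium, and Fbln5, fibulin 5 of elastic fibres. Gja5 was at 273.6 CPM with Cytl1 against 50.9 without in library 1 and at 283.2 against 79.2 in library 2. Among barcodes that met no other class rule, 131 of 6986 genes were called higher (1.88%) and 134 lower (1.92%). Of 16 arterial genes tested there, Gja4, Gja5, Bmx and Fbln5 were called higher, and Hey1, a Notch target, was called lower. All 7 lymphatic genes were called lower there (median -4.76 and -4.05). Over all endothelial barcodes, 6 of the 7 were called lower (median -3.94 and -3.53). Lyve1, the hyaluronan receptor of lymphatic endothelium, was at 2.27 against 143.0 CPM and 3.93 against 112.2 CPM. Mmrn1 was at 1.14 against 168.5 and 0.983 against 165.0 CPM.

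In the other lists, Nos3, the endothelial nitric oxide synthase, was called higher with Cytl1 among 8 flow and vasomotor genes, at 204.8 against 67.9 and 218.3 against 95.7 CPM. Klf2 and Klf4, transcription factors that respond to flow, were not called, at 286.7 against 214.5 and 339.2 against 221.1 CPM for Klf2 and 336.5 against 304.2 and 331.4 against 336.6 CPM for Klf4. Vwf was the call among 7 venular genes tested, and Cd36, a fatty acid receptor of capillaries, was called lower among 4 capillary genes. None of 7 mesenchymal transition genes and none of 6 cartilage genes was called. The cartilage gene Col2a1 was at 85.9 against 4.85 CPM in library 1 and 678.5 against 693.1 in library 2.

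With Gkn3, 4 of 6789 genes were called higher (0.0589%) and 69 lower (1.02%), with 387 barcodes with and 1060 without Gkn3 in library 1 and 72 and 368 in library 2. The higher genes were Adra2a, an adrenergic receptor, at 58.6 against 15.7 and 32.4 against 8.15 CPM, and Adh7, Pkhd1l1 and Prr15. None of 15 arterial genes was called, with a median log2 difference of 0.36 and 0.48 against -0.02 and -0.04 over all genes. Of 5 lymphatic genes 4 were called lower, among them Lyve1 at 2.58 against 38.7 and 4.63 against 33.5 CPM. Of 6 cartilage genes, Col2a1, Acan and Comp were called lower. Another class rule was met by 19.9% and 36.1% of the barcodes with Gkn3 and by 35.4% and 50.3% of those without. Among barcodes that met no other class rule, 5 cartilage genes were tested and Sox9 alone was called lower. Col2a1, Acan and Comp were not called there, and the cause of that change was not tested. Genes called for Cytl1 and Gkn3 share barcodes and are not independent.

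Against all other barcodes of 3000 or more UMIs, 569 of 7207 genes were at least 2-fold higher in endothelial barcodes of both libraries (7.9%), and by the smaller of the 2 folds Gkn3 ranked 40th and Cytl1 153rd. Their log2 differences were 4.76 and 3.99 for Gkn3 and 2.59 and 3.73 for Cytl1. The choice of genes and the class rule used these values, so nothing is read from the count.

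Subsets of endothelial barcodes were set by further markers. Arterial-marked barcodes that met no other subset rule held Cytl1 at 3659 CPM (3611 to 3707, 568 barcodes) and 2642 CPM (2565 to 2721, 161 barcodes), and Gkn3 at 225.7 and 142.4 CPM. Venular-marked barcodes that met no other subset rule held Cytl1 at 1067 CPM (1009 to 1127, 111 barcodes) and 623.4 CPM (519.3 to 742.2, 37 barcodes), and Gkn3 at 16.8 and 44.5 CPM. Among barcodes that met no other subset rule, both genes were thus higher in arterial-marked than in venular-marked ones in both libraries. Median depths were 7858 and 7404 UMIs in the arterial-marked ones against 5104 and 4131, and the part of depth was not tested. The venular markers include Selp, at 602.8 and 452.2 CPM in endothelial barcodes that met no other class rule. The cluster below with all 5 venular markers had Cytl1 at 25.5 and 47.4 CPM (29 and 4 barcodes) and no Gkn3 UMI. How many venular-marked barcodes were venular endothelium was not tested. Over all 549 and 122 venular-marked barcodes, most of which also met another subset rule, Cytl1 was at 2059 and 1263 CPM and Gkn3 at 162.1 and 50.5 CPM. Lymphatic-marked barcodes were counted whether or not they met another subset rule. The 19 of library 1 held 4 Cytl1 UMIs and no Gkn3. The 9 of library 2 held no Gkn3 and 248 Cytl1 UMIs, all of them in 1 barcode.

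Clustering of the 1224 endothelial barcodes that met no other class rule, with Cytl1 and Gkn3 left out, gave 12 clusters, of which 10 held at least 20 barcodes. Cytl1 was highest in both libraries in a cluster led by Klk10, Col4a4, Shisa9, Col4a3 and Krt80. It stood there at 8888 CPM (8732 to 9045, 122 barcodes) in library 1 and 8248 CPM (7882 to 8627, 25 barcodes) in library 2, and every barcode of the cluster had a Cytl1 UMI. The level ran from 21.9 to 160.3 per 10000 UMIs with a median of 81.0 in library 1, and from 18.4 to 145.0 with a median of 76.3 in library 2. This cluster was 12.3% and 10.9% of the clustered barcodes and held 30.9% and 34.5% of their Cytl1 UMIs. Gkn3 was at 354.3 CPM (323.8 to 386.8) and 289.6 CPM (224.5 to 367.8) in it.

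The cluster carried no name from the subset markers. Klk10 itself was at 403.5 and 687.4 CPM, and Col4a3 and Col4a4, chains of basement membrane collagen, at 82.1 and 43.2 CPM and at 155.7 and 125.4 CPM. Gja5 was at 519.2 and 881.9 CPM, against 368.0 and 500.3 CPM in the largest cluster, which Frmd5, Kif26b and Esr1 led. Hey1 was at 9.29 and 4.32 CPM, against 36.6 and 29.1 CPM there. Klf2 was at 562.8 and 562.0 CPM against 259.0 and 324.4 CPM, and Nos3 at 426.4 and 557.7 CPM against 251.2 and 266.1 CPM.

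In the cluster led by Frmd5, Cytl1 stood at 2151 and 1826 CPM and Gkn3 at 203.1 and 116.6 CPM (295 and 68 barcodes). A cluster led by Cadm3, Cmah and Aqp1, the water channel, held Cytl1 at 3930 and 2885 CPM and Gkn3 at 327.4 and 117.5 CPM (142 and 21 barcodes). The cluster led by Hbb-bs, Spp1 and Penk was shallow, with median depths of 3924 and 3724 UMIs, and had genes of red cells and of matrix-producing cells among its leading 10. It held Cytl1 at 3338 and 1505 CPM and Gkn3 at 97.6 and 52.3 CPM. The median Cytl1 level was 14.3 and 6.05 per 10000 UMIs and the highest 218.9 and 70.5, so the summed level stood above that of most barcodes. Penk also led the Cytl1-high barcodes outside the endothelial and chondrocyte rules. The part of RNA from other cells in this cluster's Cytl1 was not tested. A cluster led by Cxcl5 and Kirrel3 had 29 barcodes in library 1 and 1 in library 2, with Gkn3 at 391.7 CPM (334.5 to 455.8) in library 1, which overlaps the interval of the Klk10 cluster.

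Several clusters held little of either gene. In the lymphatic-like cluster, with all 6 lymphatic markers and Ccl21a (ENSMUSG00000094686, 1 of 2 genes of that symbol), Mmrn1 and Lyve1 among its leading genes, Cytl1 was at 253.1 CPM in 21 barcodes of library 1, with 48 UMIs in 5 barcodes, and had no UMI in 4 barcodes of library 2. Gkn3 had 1 UMI there in all. The cluster led by Cd36, Aplnr and Col15a1 held all 5 venular markers, Ackr1 among them, and 4 of the 6 capillary markers. It had Cytl1 at 25.5 CPM (10.3 to 52.6, 29 barcodes) and 47.4 CPM (4 barcodes), and no Gkn3 UMI. The cluster led by Gal, Igfbp3 and Esm1 had Cytl1 at 109.5 CPM and 2 Gkn3 UMIs in 23 barcodes of library 1, and no UMI of either gene in 2 barcodes of library 2. The cluster led by Sprr1a, Ubd and Lipg, with Gja5 at 40.1 and 89.6 CPM and Vcam1, an adhesion molecule of activated endothelium, at 1750 and 1034 CPM, had Cytl1 at 286.7 and 153.1 CPM and Gkn3 at 24.2 CPM and none (67 and 16 barcodes). In library 1, both genes were thus lower in these 4 than in the 4 largest. In library 2, 3 of the 4 held 4 barcodes or fewer.

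**Figure D5:**
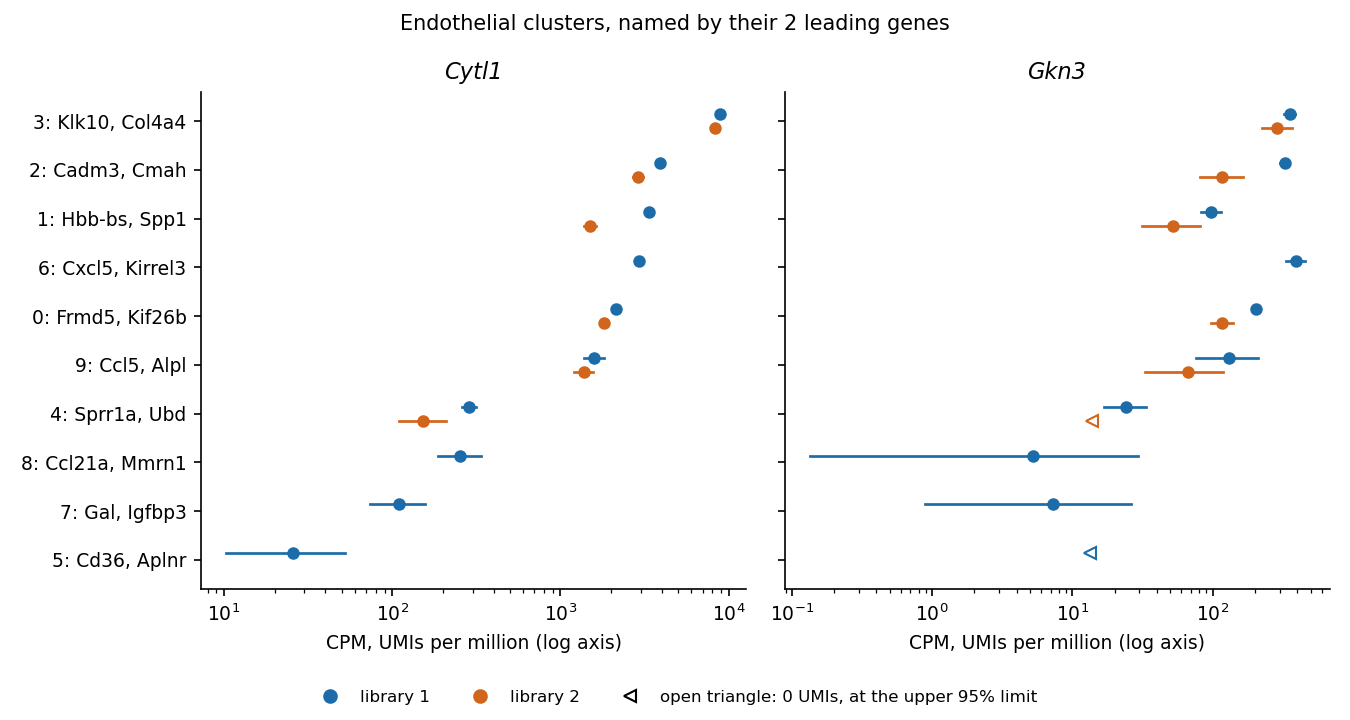
CPM (log axis) of Cytl1 (left) and Gkn3 (right) in the endothelial clusters of at least 20 barcodes, each labelled by its number and its 2 leading genes, for libraries with at least 10 barcodes in the cluster, with 95% counting intervals. The cluster led by Klk10 is at the top for Cytl1, at 8888 and 8248 CPM, and the cluster led by Cd36 at the bottom, at 25.5 CPM.

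Library 1 held more of both genes than library 2. Over all barcodes of 3000 or more UMIs, Cytl1 was at 909.1 and 232.8 CPM, a ratio of 3.90 (3.83 to 3.98), and Gkn3 at 40.3 and 6.27 CPM, a ratio of 6.42 (5.78 to 7.15). Endothelial barcodes made up 22.9% of these barcodes in library 1 and 6.73% in library 2. Within endothelial barcodes the ratio was 1.496 for Cytl1 (1.46 to 1.53) and 2.04 for Gkn3 (1.83 to 2.29). At the 1.5-fold limit, 84 of 7191 genes were lower in library 2 (1.17%) and 265 higher (3.69%). Gkn3 ranked 22nd from the lowest in library 2 and was among the 84, and Cytl1, at a ratio just under the limit, ranked 89th. The 5 endothelial markers had ratios between 1.04 and 1.26, and Gja5 had 0.940. Among barcodes that met no other rule, the ratios were 1.38 for Cytl1 and 1.95 for Gkn3. With TMM scaling of the summed counts, which shifts all ratios by 0.11 on the log2 scale, the Cytl1 ratio in endothelial barcodes passed the limit, at 1.61.

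The ratio between the libraries was not the same in every cluster. In the cluster led by Klk10, it was 1.08 for Cytl1 (1.03 to 1.13) and 1.22 for Gkn3 (0.946 to 1.60). In the cluster led by Frmd5 it was 1.18 (1.12 to 1.24) and 1.74 (1.44 to 2.11), and in that led by Cadm3 1.36 (1.27 to 1.47) and 2.79 (1.97 to 4.08). The cluster led by Hbb-bs and Spp1 had 2.22 (2.03 to 2.43) and 1.87 (1.15 to 3.19). Outside the endothelium, the ratio for Cytl1 was 7.38 in chondrocytes (7.03 to 7.74), 3.54 in fibroblasts (3.39 to 3.69) and 1.37 in smooth muscle (1.299 to 1.447). In fibroblast barcodes the 5 endothelial markers had ratios between 2.05 and 2.92 and Gkn3 had 2.83 (2.06 to 3.94), and their part in the fibroblast value was not tested. These ratios compare 2 libraries with counting error only, and their relation to HFD or MSC_ITGB3 cannot be told from the deposited data used here.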

How the data were processed

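The authors deposited 1 matrix of raw UMI counts for the series, unfiltered and not normalized. Its software was Cell Ranger 6.0.1, per the file headers. Per the labels' protocols, the kit was the Chromium 3′ v3 kit. Seurat, bcl2fastq and the build mm10 also stand in the submitters' processing notes. The members and lists were chosen with earlier results of these data known. Barcodes of 3000 or more UMIs were kept and classed by marker counts. Counts were summed per class and library, with exact Poisson, Clopper-Pearson and conditional ratio intervals at 95%. Thinning drew 3000 UMIs per barcode without replacement (seed 0). Genes were compared by fold, with no count model and no p-value, and the fold code was tested on simulated counts. Endothelial clusters came from scanpy 1.11.5 (2000 variable genes, 30 principal components, 15 neighbours, Leiden resolution 0.5). Gene positions came from GENCODE vM21 on GRCm38. No doublet caller was run and free RNA was not subtracted. Named genes were the 2 members and class markers, the 10 genes most like each, genes of the fixed lists and the leading genes of each cluster. Genes named outside that rule, chosen after their values were seen, are the leading genes of barcodes with or without a member, Penk and other genes of Cytl1-high barcodes, and chromosome neighbours. Alternatives were tried for the filters, class rules, thinning, scaling and clustering.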

Additional observations from a re-analysis of the deposited data

How the results depend on the processing

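No paired analysis was possible because each group holds 1 sample and the barcode suffixes are not tied to groups. No result has a test, so a value is said to move when it left the counting interval of the reported value, and a count when it changed by over 1.5 times. The cause of a move was not tested. For library 1 and library 2 in turn, Cytl1 in endothelial barcodes was at 2454 and 1570 CPM with a minimum of 1000 UMIs, 2664 and 1825 with 5000 UMIs, 2924 and 2122 in barcodes meeting 1 class rule, 2679 and 1925 with 4 of 5 markers, 2875 and 2217 with 5 of 5 markers, and 2344 and 1570 as a mean over barcodes. Without lymphatic-marked barcodes it moved in library 1, to 2571 CPM. Gkn3 in endothelial barcodes was at 196.7 and 100.7 CPM in barcodes meeting 1 class rule, 189.0 and 94.8 with 4 of 5 markers and 213.3 and 106.1 with 5 of 5, and in library 1 at 179.1 with 5000 UMIs and 153.7 as a mean over barcodes. Cytl1 in chondrocyte barcodes was at 4734 and 471.2 CPM with Col2a1 at 100 or more per 10000, 3703 and 513.9 at 200 or more, 4563 and 623.2 with 5000 UMIs and 3663 and 532.6 as a mean over barcodes, and in library 1 at 3889 with 1000 UMIs and 5181 in barcodes meeting 1 class rule. Shares of endothelial barcodes with a UMI were 86.7% and 84.5% for Cytl1 and 42.5% and 27.0% for Gkn3 without thinning, and 67.1% and 57.2% and 11.4% and 6.08% when thinned to 1000 UMIs. With TMM scaling, the endothelial ratio of library 1 to library 2 was 1.61 for Cytl1. Among genes at 50 CPM or more, where fewer genes enter, 50 genes were lower and 118 higher in library 2, 26 were lower with Cytl1, and 2 were higher and 35 lower with Gkn3. In barcodes meeting no other class rule, 131 genes were higher and 134 lower with Cytl1. With 15 principal components, Cytl1 in the cluster led by Klk10 was at 8286 CPM in library 1. The mitochondrial limit of 10%, Leiden resolution 1.0 and thinning seed 1 moved none of these values. Of 218 recomputed values for the other classes, 82 moved. Depth limits Gkn3: in library 2 it had 355 UMIs in endothelial barcodes and at most 74 in any other class.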
